A study of Homo sapiens with 15 samples.

Results

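Exon and intron reads of 9 genes that encode chromatin and transcription elongation factors were followed over all 15 libraries of HepG2 cells: the histone methyltransferases KMT2A, KMT2C, KMT2D and DOT1L, the histone acetyltransferases CREBBP and EP300, the elongation scaffolds AFF1 and AFF4, and the coregulator ZMIZ1. They are 9 of the 57773 genes in each table, matched by symbol. They were selected on their exon reads, which stood higher with one flame retardant, TCIPP, than with another, TCEP, so that difference is given here as a description and is not tested. The selection names no threshold and no single concentration. HepG2 is an established human hepatocellular carcinoma line. The cells were exposed for 72 h to TCEP, tris(2-chloroethyl) phosphate, at 25 or 250 µM or to TCIPP, tris(2-chloroisopropyl) phosphate, at 2.5 or 25 µM. Controls received 0.1% dimethyl sulfoxide (DMSO) and no other agent. These are chlorinated organophosphate flame retardants that differ by the branching methyl groups of TCIPP. Each group had 3 libraries, and each culture was seeded, treated and extracted separately, per the labels. The model is a single tumour line without other liver cell types.

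KMT2A, KMT2C and KMT2D are the catalytic subunits of COMPASS-like complexes, which methylate lysine 4 of histone H3: KMT2A acts mainly at promoters, KMT2C and KMT2D mainly at enhancers. CREBBP (CBP) and EP300 (p300) are paralogous coactivators that acetylate histones, including lysine 27 of histone H3, at enhancers and promoters. DOT1L methylates lysine 79 of histone H3 in transcribed genes, and AFF1 and AFF4 are alternative scaffolds of the super elongation complex, which brings the kinase P-TEFb to paused RNA polymerase II. ZMIZ1 is a coregulator related to the PIAS family. In liver cells, CBP, p300 and the enhancer methyltransferases serve as cofactors of nuclear receptors and of hepatocyte transcription factors.

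The promoters of these genes are shown as a description of their sequence, and their part in the RNA levels was not tested. RefSeq windows of 300 bases on GRCh38.p14, running from 250 before to 50 after the annotated start, were found for 7 of the 9 genes (9 windows, since CREBBP and AFF1 have 2 each). DOT1L and ZMIZ1 had no entry. The windows were rich in G and C, at 65.0 to 88.7% (median 75.3%) against a median of 58.7% over all 35116 windows, and held 27 to 56 CpG dinucleotides against a median of 14. The GC box GGGCGG, searched on both strands, occurred in 8 of 9 windows and in 45% of all windows. The TATA motif TATAAA occurred in 0 of 9 and in 11.5% of all windows, and the CRE palindrome TGACGTCA in 0 of 9 and in 1.85%. The E-box CACGTG was found in 2 of 9 and in 7.26%. None of these motifs contains another, and a match is a description of the letters. The windows of AFF1 (the upstream start, chr4:86934761-86935060, plus strand) and KMT2D (chr12:49060745-49061044, minus strand) are printed because these genes had the largest differences between the compounds at 25 µM. The window of EP300 (chr22:41092342-41092641, plus strand) is printed because it is the one without a GC box. Capitals mark each GC box on either strand, and the bases run 5′ to 3′ on the gene's strand.
AFF1: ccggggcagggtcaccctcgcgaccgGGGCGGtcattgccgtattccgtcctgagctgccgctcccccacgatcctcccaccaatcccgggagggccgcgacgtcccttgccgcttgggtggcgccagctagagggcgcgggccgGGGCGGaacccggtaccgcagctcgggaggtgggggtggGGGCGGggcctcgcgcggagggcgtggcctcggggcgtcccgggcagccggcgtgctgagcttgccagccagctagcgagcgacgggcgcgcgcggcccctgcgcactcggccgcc
KMT2D: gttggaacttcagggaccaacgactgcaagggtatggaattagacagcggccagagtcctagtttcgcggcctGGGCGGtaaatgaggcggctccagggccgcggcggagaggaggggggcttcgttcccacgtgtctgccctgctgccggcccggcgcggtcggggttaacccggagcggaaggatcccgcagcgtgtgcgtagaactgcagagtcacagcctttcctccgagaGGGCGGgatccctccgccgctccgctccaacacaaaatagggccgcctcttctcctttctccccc
EP300: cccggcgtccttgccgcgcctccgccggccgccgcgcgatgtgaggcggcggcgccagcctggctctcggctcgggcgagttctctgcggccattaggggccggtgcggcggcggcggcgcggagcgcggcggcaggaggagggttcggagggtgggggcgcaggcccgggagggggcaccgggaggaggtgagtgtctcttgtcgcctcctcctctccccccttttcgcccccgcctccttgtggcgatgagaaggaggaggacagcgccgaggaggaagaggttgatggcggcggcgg
The GC boxes numbered 3 in the AFF1 window, 2 in KMT2D and 0 in EP300. The most were counted in KMT2C, with 15 matches, some of which overlap each other.

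Total exon reads ran from 5353963 to 26771751 a library, and 3 reads were worth 0.111 to 0.564 CPM, counts per megaread of the library. Each of the 9 genes had at least 398 exon reads in every library, and all 9 passed the filters on low counts, as did 12567 genes on exon reads and 10490 on intron reads. The hepatocyte genes ALB, APOB and SERPINA1 stood at 7444 CPM or more in every library, and all 8 hepatocyte markers at 152 CPM or more. Of 5 fibroblast and stellate cell markers, the collagen gene COL1A2 and DCN were at 0 in 15 of 15 libraries and COL3A1 in 14, while COL1A1 stood at 0.67 to 2.54 CPM and the growth factor receptor gene PDGFRB at 10.17 to 33.6 CPM. The summed level of these 5 was 12.7 to 19.0 CPM with TCEP at 25 µM, 13.9 to 20.7 with TCIPP at 2.5 µM, 18.0 to 27.03 with TCEP at 250 µM, 17.2 to 34.2 with TCIPP at 25 µM and 19.7 to 24.6 with DMSO, and its part in the results was not tested. The 2 endothelial and 4 leukocyte markers were at most 2.43 CPM each. Over the libraries of each group, the summed levels of 8 hepatocyte markers ranged from 40880 to 48730 CPM with DMSO, 38230 to 40380 with TCEP at 25 µM, 37740 to 43080 with TCEP at 250 µM, 36830 to 40570 with TCIPP at 2.5 µM and 38320 to 46150 with TCIPP at 25 µM. In bulk RNA, fewer cells of a kind and less RNA per cell cannot be told apart. One control stood apart for these genes: the mean deviation of the 9 genes from their own means over all libraries, on the scale of log2(CPM + 1), was 0.15 in DMSO replicate 1 against -0.004 and -0.08 in replicates 2 and 3. Results against DMSO are therefore also given without it.

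Per kilobase of exon, KMT2C was the lowest of the 9 genes in DMSO, at 2.69 ± 0.127 RPKM (reads per kilobase of exon and megaread; SD, n = 3), and EP300 the highest, at 10.9 ± 1.09 RPKM. KMT2A followed KMT2C at 3.63 ± 0.356 RPKM and KMT2D stood at 4.59 ± 0.624 RPKM. DOT1L and CREBBP, at 6.12 ± 0.900 and 6.15 ± 0.307 RPKM, did not differ beyond their spread, and AFF1 stood above them at 7.38 ± 0.290 RPKM. ZMIZ1, AFF4 and EP300 formed the top of the order, at 10.02 ± 0.988, 10.6 ± 0.860 and 10.9 ± 1.09 RPKM, within their spread of each other. The enhancer and promoter methyltransferases of the KMT2 family thus lay below both acetyltransferases and both elongation scaffolds on this scale. RPKM divides by the length of all annotated exons, which was 9.59 kb for EP300 and 22.7 kb for KMT2C. Reads placed at 1 position made up 66.9% of the exon reads of EP300, 77.5% of KMT2A and 86.8% of DOT1L, so the levels of these genes are less certain. The share was at least 97.96% for the other 6 genes.

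Among the methyltransferases of lysine 4, all 3 genes had their lowest group means with TCEP and their highest with TCIPP at 25 µM. KMT2A (ENSG00000118058, chr11:118307205-118397539 on GRCh37) had 98.5, 80.6 and 83.8 CPM in DMSO replicates 1, 2 and 3, 77.8, 81.3 and 77.3 with TCEP at 25 µM, 84.0, 79.8 and 82.9 with TCEP at 250 µM, 82.6, 89.1 and 92.4 with TCIPP at 2.5 µM and 98.0, 89.1 and 95.9 with TCIPP at 25 µM. The first DMSO library lay at the level of the highest TCIPP libraries, the other controls lay with TCEP, and no TCIPP library at 25 µM fell below 89.1 CPM. KMT2C (ENSG00000055609, chr7:151832010-152133090 on GRCh37) had 71.3, 63.8 and 65.8 CPM in DMSO, 62.5, 62.8 and 62.3 with TCEP at 25 µM, 58.1, 64.1 and 61.7 with TCEP at 250 µM, 65.4, 74.4 and 74.3 with TCIPP at 2.5 µM and 71.3, 74.8 and 80.8 with TCIPP at 25 µM. All 6 TCIPP libraries of KMT2C lay above all 6 TCEP libraries. KMT2D (ENSG00000167548, chr12:49412758-49453557 on GRCh37) had 119.6, 101 and 90.1 CPM in DMSO, 86.8, 79.1 and 84.4 with TCEP at 25 µM, 97.3, 84.0 and 93.3 with TCEP at 250 µM, 91.2, 91.2 and 99.97 with TCIPP at 2.5 µM and 114, 102 and 116 with TCIPP at 25 µM. The DMSO libraries of KMT2D were the most spread of its groups, and those with TCIPP at 2.5 µM overlapped those with TCEP at 250 µM. KMT2D overlaps PRKAG1, a subunit gene of the energy sensor AMPK, and no source used here says whether strand entered the counting.

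**Figure D1:**
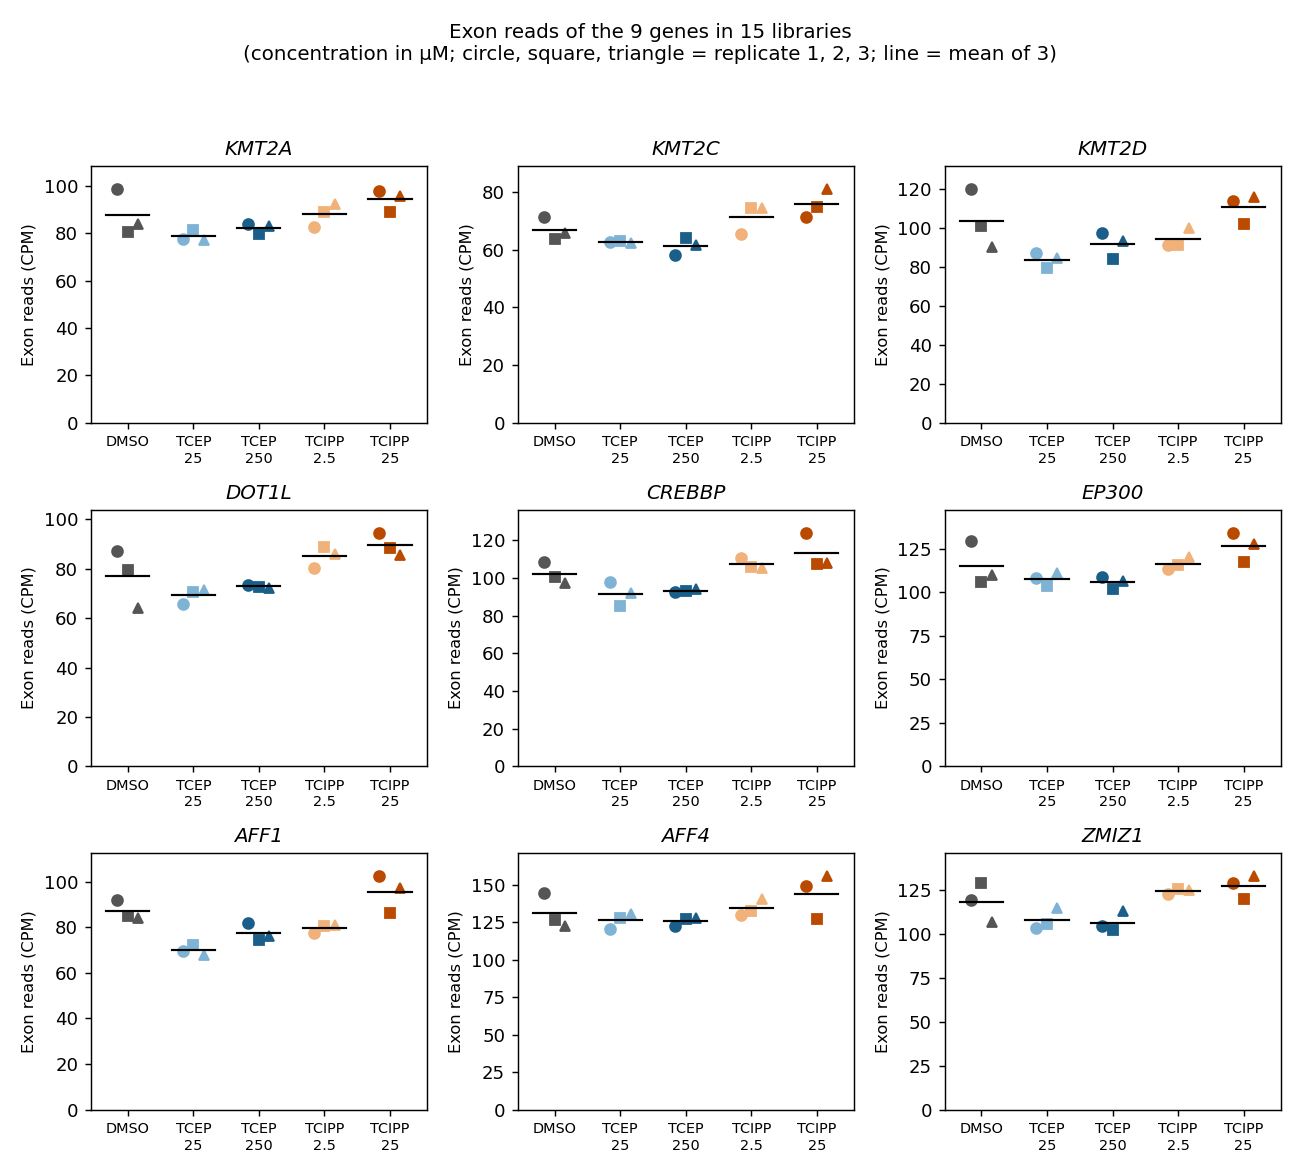
Exon reads in CPM (vertical axes from 0) for each of the 9 genes in the 5 groups (horizontal axes, concentration in µM); each point is 1 library, its shape the replicate number and the line the mean of 3. The mean with TCIPP at 25 µM is the highest and both TCEP means lie below the DMSO mean in each panel, while DMSO replicate 1 is the highest control for every gene except ZMIZ1.

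Of the genes tied to elongation, the scaffold gene AFF1 had the widest and AFF4 the narrowest difference between the compounds at 25 µM among the 9 members. DOT1L (ENSG00000104885, chr19:2164148-2232577 on GRCh37) had 87.1, 79.6 and 64.2 CPM in DMSO, 65.9, 70.7 and 71.3 with TCEP at 25 µM, 73.5, 72.8 and 72.2 with TCEP at 250 µM, 80.2, 88.8 and 86.1 with TCIPP at 2.5 µM and 94.5, 88.4 and 85.4 with TCIPP at 25 µM. The controls of DOT1L spanned both compounds, and its 6 TCIPP libraries stood above its 6 TCEP libraries. DOT1L overlaps AP3D1 and PLEKHJ1 in the annotation. AFF1 (ENSG00000172493, chr4:87856154-88062206 on GRCh37) had 92.0, 85.0 and 84.2 CPM in DMSO, 69.7, 72.1 and 67.9 with TCEP at 25 µM, 81.9, 74.6 and 76.0 with TCEP at 250 µM, 77.6, 80.3 and 80.9 with TCIPP at 2.5 µM and 102, 86.1 and 97.3 with TCIPP at 25 µM. AFF1 was the one gene for which every library with TCEP, and every library with TCIPP at 2.5 µM, lay below every DMSO library. AFF1 overlaps C4orf36. AFF4 (ENSG00000072364, chr5:132211071-132299326 on GRCh37) had 145, 126 and 122 CPM in DMSO, 121, 128 and 130.2 with TCEP at 25 µM, 123, 127 and 128 with TCEP at 250 µM, 129.6, 133 and 141 with TCIPP at 2.5 µM and 149, 127 and 156 with TCIPP at 25 µM. AFF4 was the most abundant of the 9 genes in reads, and its second TCIPP library at 25 µM lay among the TCEP libraries.

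The acetyltransferase genes and ZMIZ1 each separated the 6 TCIPP libraries from the 6 TCEP libraries. CREBBP (ENSG00000005339, chr16:3775055-3930727 on GRCh37) had 109, 100.3 and 97.1 CPM in DMSO, 97.8, 85.1 and 92.0 with TCEP at 25 µM, 92.7, 92.9 and 93.99 with TCEP at 250 µM, 111, 106 and 105 with TCIPP at 2.5 µM and 124, 107 and 108 with TCIPP at 25 µM. Its first library with TCIPP at 25 µM was the highest of the 15, and the other 2 of that group lay within the range of TCIPP at 2.5 µM. EP300 (ENSG00000100393, chr22:41487790-41576081 on GRCh37) had 129.9, 106 and 109.9 CPM in DMSO, 109, 104 and 111 with TCEP at 25 µM, 109, 102 and 106 with TCEP at 250 µM, 114, 116 and 121 with TCIPP at 2.5 µM and 134, 118 and 128 with TCIPP at 25 µM. Its first DMSO library lay inside the range of TCIPP at 25 µM and the other controls inside that of TCEP at 25 µM. ZMIZ1 (ENSG00000108175, chr10:80828792-81076276 on GRCh37) had 119.5, 129 and 107 CPM in DMSO, 103, 105 and 115 with TCEP at 25 µM, 104, 102 and 113 with TCEP at 250 µM, 123, 126 and 125 with TCIPP at 2.5 µM and 129, 119.6 and 133 with TCIPP at 25 µM. The controls of ZMIZ1 reached from the TCEP to the TCIPP range.

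At the shared concentration of 25 µM, all 9 genes were higher with TCIPP than with TCEP, by 0.19 (AFF4) to 0.45 (AFF1) on the log2 scale, with a median of 0.28. This is the contrast that chose them, so no test is given. KMT2D followed AFF1 at 0.41 (standard error, SE, 0.0939), DOT1L stood at 0.37 (SE 0.0918) and CREBBP at 0.31 (SE 0.0735). KMT2C and KMT2A, at 0.28 and 0.26, lay near the middle, and ZMIZ1 and EP300 at 0.24 and 0.23. The ranges of the groups did not overlap for 8 of 9 genes, all but AFF4, where 10.4% of all 12567 genes were non-overlapping and higher. Over both concentrations of each compound the differences ran from 0.14 for AFF4 to 0.30 for DOT1L, with a median of 0.23. All 6 TCIPP libraries lay above all 6 TCEP libraries for KMT2C, DOT1L, CREBBP, EP300 and ZMIZ1, 5 of 9, against 0.637% of all genes. As the selection used this contrast, nothing is read from these shares. The median over all genes was -0.002 at 25 µM.

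Against DMSO, TCEP left all 9 genes at lower point estimates and none was called by edgeR's quasi-likelihood test at an adjusted p under 0.05. With TCEP at 25 µM the log2 differences ran from -0.32 to -0.05 with a median of -0.14, while the median over all genes was 0. AFF1 had the largest difference, -0.32 (SE 0.0716, 95% interval -0.47 to -0.17, adjusted p = 0.116), lower in 3 of 3 libraries than every control. KMT2D came next at -0.30 (SE 0.0931, interval -0.50 to -0.11, adjusted p = 0.165), with no overlap either. At an unadjusted p under 0.05 stood 2 of 9 members, against 15.2% of all genes, and 0% of all genes passed the adjusted threshold. KMT2C, KMT2D and AFF1, 3 of 9, had every TCEP library below every control, against 11.3% of all genes. The call for AFF1 turned with the tool: DESeq2 called it (adjusted p = 0.0104, with 2.7% of its tested genes called), limma-voom called 0 of 9, and edgeR without the filter on low counts called AFF1 and KMT2D (adjusted p = 0.0299 and 0.0412, with 2.81% of genes called). Without DMSO replicate 1 the members' median was -0.063, AFF4 turned to 0.02, KMT2D was at -0.19 and AFF1 at -0.28.

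At 250 µM the TCEP estimates were again all below DMSO, at -0.17 to -0.06 with a median of -0.13, and the median over all genes was 0.002. AFF1 stood at -0.17 (SE 0.0718, interval -0.32 to -0.02, edgeR adjusted p = 0.949) and ZMIZ1 at -0.15 (SE 0.0756, interval -0.31 to 0.01, adjusted p = 0.987). None of the 9 was called by edgeR, DESeq2 or limma-voom, as 0% of all genes by edgeR. AFF1 alone had an unadjusted p under 0.05, 1 of 9 against 5.2% of all genes. AFF1 and CREBBP had all TCEP libraries below all controls, 2 of 9 against 5.37%. Without DMSO replicate 1 the median was -0.055, and 3 of 9 genes, KMT2A, DOT1L and AFF4, were no longer lower.

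**Figure D2:**
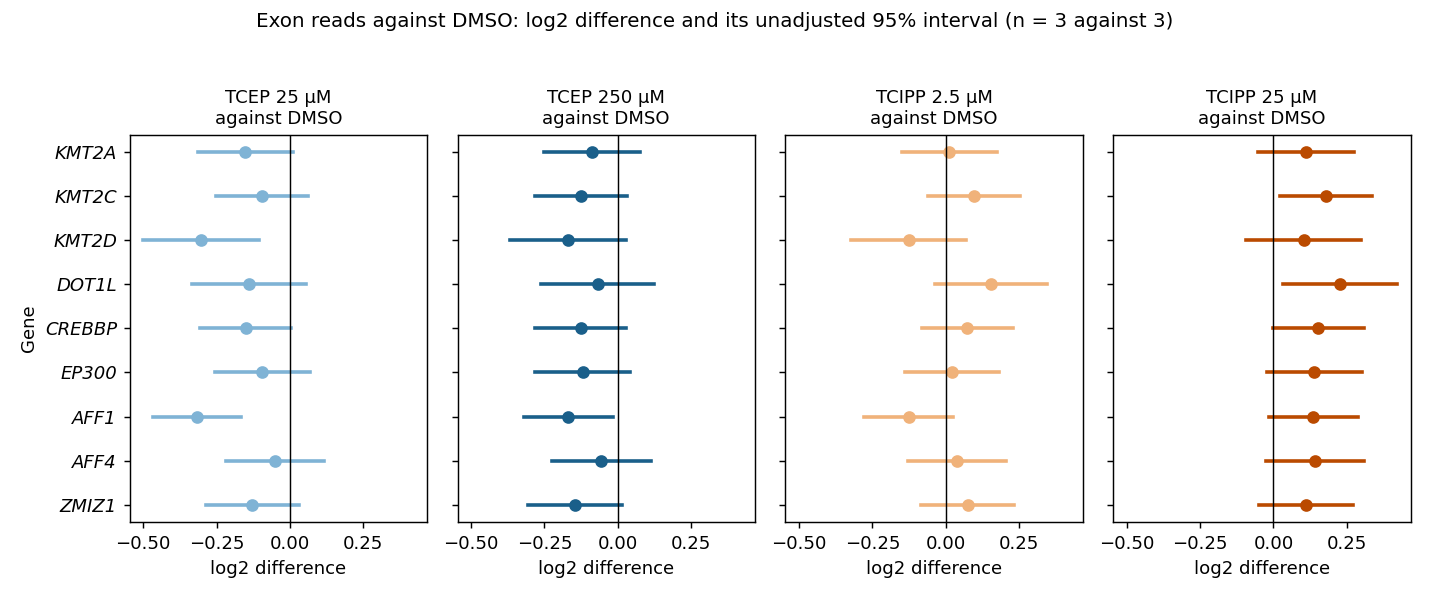
Log2 difference from DMSO in exon reads (horizontal axes) for the 9 genes (rows) and the 4 treatments (panels); points are estimates and bars unadjusted 95% intervals from the fit of all 15 libraries, 3 against 3. All points are below 0 with TCEP and above 0 with TCIPP at 25 µM, and with TCIPP at 2.5 µM they lie on both sides.

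With TCIPP the estimates against DMSO were mixed at 2.5 µM and all positive at 25 µM, and again no member was called. At 2.5 µM, 7 genes stood above and 2 below the controls, from -0.13 to 0.155 with a median of 0.04. AFF1 was one of the lower genes, at -0.13 (SE 0.0716, interval -0.28 to 0.03, edgeR adjusted p = 0.458), with all 3 libraries below all controls, 1 of 9 against 7.94% of all genes. DOT1L was the highest, at 0.155 (SE 0.0910, interval -0.04 to 0.35, adjusted p = 0.486). At this concentration 0.0955% of all genes were called, and 0 of 9 members had an unadjusted p under 0.05 against 13.9% of all genes. Without DMSO replicate 1 the median was 0.11, and without all libraries numbered 3 it was -0.05. Over the leave-outs 5 of 9 genes, KMT2A, KMT2D, EP300, AFF4 and ZMIZ1, changed side.

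At 25 µM TCIPP the 9 genes lay 0.10 to 0.23 above DMSO, with a median of 0.14 against -0.002 for all genes. DOT1L had the smallest p, with a difference of 0.23 (SE 0.0918, interval 0.03 to 0.42, edgeR adjusted p = 0.691), and KMT2C followed at 0.18 (SE 0.0748, interval 0.02 to 0.34, adjusted p = 0.718). These 2 of 9 had an unadjusted p under 0.05, against 6.36% of all genes, while 0.00796% of all genes passed the adjusted threshold and DESeq2 and limma-voom called 0 of 9. KMT2C alone had all TCIPP libraries above all controls, 1 of 9 against 4.77%. Without DMSO replicate 1 the median was 0.215, with all 9 genes still positive, and without all libraries numbered 3 KMT2D turned to -0.03. The libraries of both compounds in these tests also entered the contrast on which the genes were selected, so the side of DMSO on which each compound lies is not independent of that choice. The 4 comparisons share the 3 DMSO libraries.

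Within TCIPP, all 9 genes had higher estimates at 25 than at 2.5 µM, by 0.04 to 0.26 with a median of 0.10. These libraries also entered the contrast on which the genes were selected. The direction of the step, and the shares of members given below, are therefore not independent of that choice. AFF1 differed most, at 0.26 (SE 0.0722, interval 0.11 to 0.41), and was not called in the unblocked fit (edgeR adjusted p = 0.232). Same-numbered TCIPP libraries deviated together. A block for the replicate number was fitted over the libraries of all groups, so it is not a pairing within TCIPP alone. With this block edgeR called AFF1, at an unchanged 0.26 (adjusted p = 0.0296), as 1 of 9 members against 3.85% of all genes. In the unblocked fit KMT2D stood at 0.23 (SE 0.0938, interval 0.03 to 0.43, adjusted p = 0.385). Without the block, 0% of all genes were called, 2 of 9 members had an unadjusted p under 0.05 against 10.8% of all genes, and 2 of 9, AFF1 and KMT2D, did not overlap and were higher, against 5.84%. DESeq2 and limma-voom called 0 of 9, with a smallest adjusted p of 0.0516 by DESeq2. Without all libraries numbered 1, DOT1L turned to -0.004 between the TCIPP concentrations.

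Within TCEP, the step from 25 to 250 µM left the genes between -0.03 and 0.15, with 5 positive, 4 negative and a median of 0.02. The TCEP libraries entered the selection of the genes too, so this step is not independent of it either. AFF1 was again at the top, at 0.15 (SE 0.0722, interval -0.003 to 0.30, edgeR adjusted p = 0.695), followed by KMT2D at 0.13 (SE 0.0936, interval -0.06 to 0.33, adjusted p = 0.795). At an unadjusted p under 0.05 stood 0 of 9, against 7.16% of all genes, and 0% of all genes were called. With the replicate block, 0 of 9 members and 1.47% of all genes were called, and DESeq2 and limma-voom called 0 of 9. DOT1L and AFF1 had all libraries at 250 µM above all at 25 µM, 2 of 9 against 7.4%. Over the leave-outs KMT2C, CREBBP, AFF4 and ZMIZ1, 4 of 9, changed sign in this step. For DOT1L the separation of the libraries rested on a difference of 0.07, with a spread of 0.658 CPM (SD) over the libraries at 250 µM.

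The mean deviation of the 9 genes in each library showed the same order of groups. With each gene set against its own mean over the 15 libraries, it was -0.15 to -0.12 (lowest to highest library) with TCEP at 25 µM, -0.12 to -0.08 at 250 µM, -0.003 to 0.09 with TCIPP at 2.5 µM and 0.07 to 0.22 at 25 µM. All 6 TCEP libraries lay below all 6 TCIPP libraries, as the choice of the genes brings about, and the DMSO libraries reached from -0.08 to 0.15, overlapping 3 of the 4 treated groups. Other measures moved with the groups. The mean share of intron reads among gene reads was 8.90% in DMSO, 8.23% with TCEP at 25 µM, 8.50% at 250 µM, 8.10% with TCIPP at 2.5 µM and 8.998% at 25 µM. The share of exon reads from mitochondrial genes, over the groups as listed, was 6.997, 6.15, 6.60, 6.04 and 7.03%. TCIPP at 25 µM was the highest treated group and TCEP at 25 µM lower in both, while TCIPP at 2.5 µM was the lowest group in both although the members' mean there lay above that of DMSO. The part of these measures in the members' differences was not tested.

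All 9 genes are long: their exons sum to 9.59 to 22.7 kb, between the 89.9 and 99.85 percentiles of the genes tested, whose median was 4637 bases. Among the 545 tested genes with 12 kb or more of exon, the median difference between TCIPP and TCEP at 25 µM was 0.05, with 58.4% of genes positive, and it was 0.05 with the 4 members in that class left out. Among the 1631 genes of 8 to 12 kb, the class of the other 5 members, it was 0.01. The members' median was 0.28 in that contrast, on which they were selected, so nothing is read from its distance to the length classes. With TCEP at 250 µM against DMSO the longest class stood at -0.04, and with TCIPP at 25 µM at 0.02. The highest median deviation of the longest class in a single library was 0.08, in TCIPP at 25 µM replicate 3, where the members' mean was 0.19. In replicate 1 of the same group the long genes were at -0.001 and the members at 0.22. The part of exon length in the members' differences was not tested.

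**Figure D3:**
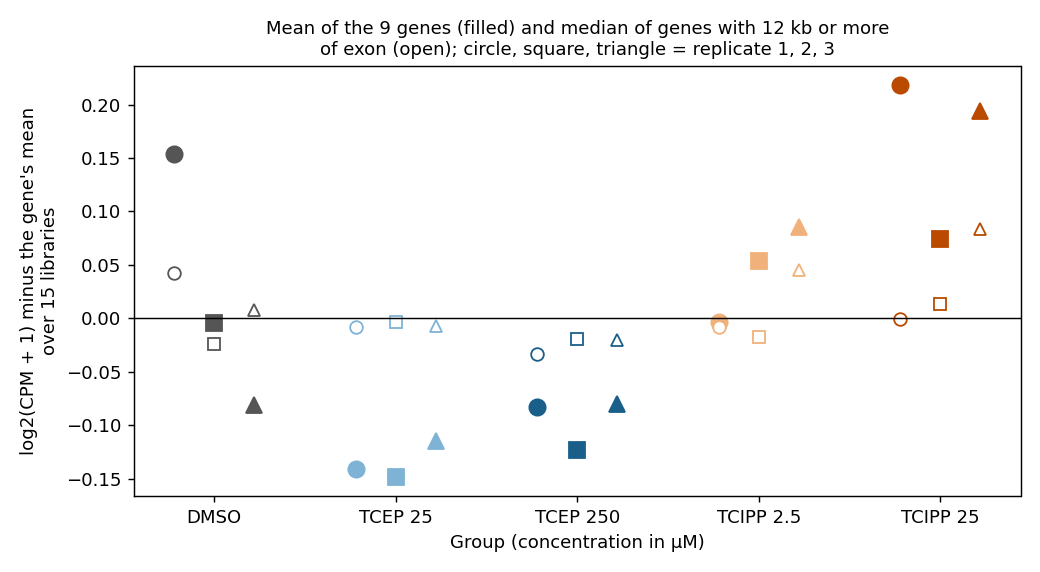
Deviation of log2(CPM + 1) from each gene's mean over the 15 libraries (vertical axis) by group; filled points are the mean of the 9 genes and open points the median of the 545 genes with at least 12 kb of exon, 1 pair per library. The members lie between -0.15 and 0.22, the long genes between -0.03 and 0.08.

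Intron reads can come from RNA not yet spliced, and their source was not tested. They gave a second measure with far fewer reads, 3 (KMT2D) to 443 (AFF1) per gene and library. They made up 16.1% of the gene reads of AFF1, 9.35% of DOT1L and 1.43 to 4.49% of the other 7 genes. AFF1 and DOT1L overlap other annotated genes, whose part in their intron reads was not tested. Against DMSO no member was called on intron reads by edgeR. With TCEP at 25 and 250 µM the signs were mixed, 4 and 6 of 9 positive with medians of -0.01 and 0.02, where on exon reads all 9 were negative. With TCIPP at 25 µM all 9 were positive, from 0.03 for AFF1 to 0.57 for KMT2D with a median of 0.17, and at 2.5 µM 4 of 9. An unadjusted p under 0.05 was reached by 0, 0, 0 and 1 of 9 members with TCEP at 25 and 250 µM and TCIPP at 2.5 and 25 µM, against 10, 5.04, 9.15 and 4.64% of the 10490 genes. That 1 gene was ZMIZ1 with TCIPP at 25 µM, at 0.39 (SE 0.151, adjusted p = 1), with 83.1, 73.3 and 70.0 intron CPM (intron reads scaled to the intron total) against 63.1, 57.1 and 54.1 in DMSO. Between concentrations, 2 of 9 reached it within TCEP (ZMIZ1 at 0.38 and CREBBP at 0.65) against 4.79% of genes. Within TCIPP 2 of 9 did (KMT2D at 0.97 and ZMIZ1 at 0.37) against 8.54%. None was called, and the replicate block was not fitted on intron reads. KMT2D rested there on 3 to 32 intron reads a library at 2.5 µM.

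Between TCIPP and TCEP at 25 µM, given as a description, the intron differences ran from -0.07 for KMT2A to 0.61 for CREBBP with a median of 0.26, and 8 of 9 were positive. ZMIZ1 stood at 0.58 (SE 0.155), larger than its exon difference of 0.24, with 56.3, 50.2 and 45.9 intron CPM under TCEP. AFF1, with the most intron reads, was at 0.26 (SE 0.135) on introns and 0.45 on exons. DOT1L, the next in intron reads, was at 0.03 (SE 0.176) on introns and 0.37 (SE 0.0918) on exons. For the 6 other genes the SE on intron reads was 0.21 to 0.36. The gap between the exon and the intron estimate was not tested for any of the 9 genes. A gap no larger than the SE on intron reads cannot be told from 0 at this depth.

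**Figure D4:**
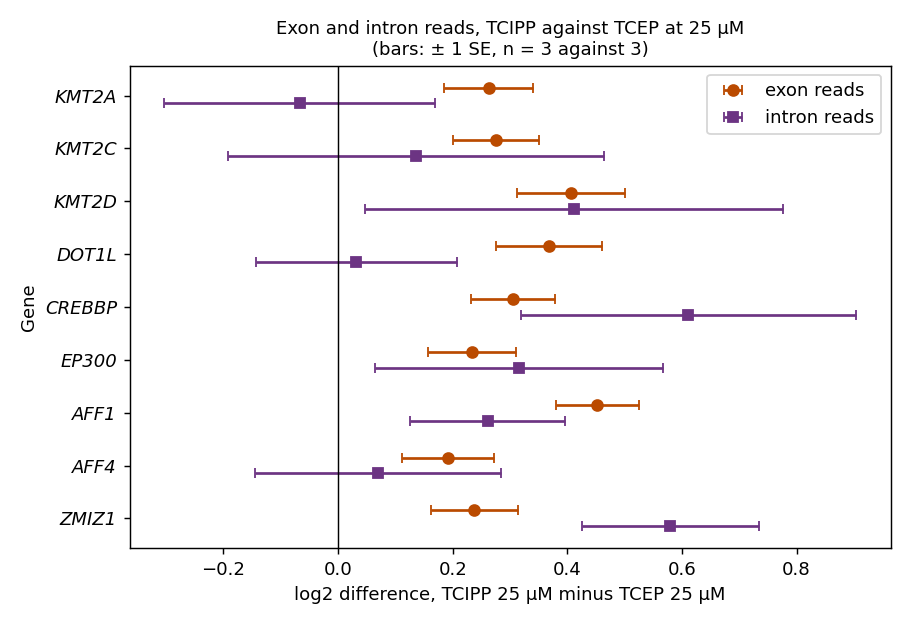
Log2 difference between TCIPP and TCEP at 25 µM (horizontal axis) from exon reads (circles) and intron reads (squares) for the 9 genes (rows), with bars of ± 1 SE, 3 libraries against 3. Exon estimates all lie above 0, while intron estimates have wide bars and reach from -0.07 to 0.61.

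Other genes of these pathways came from 8 lists of 123 genes, all matched and 119 of them tested on exon reads. In the main edgeR fit, without a block, 0 of 119 were called in any of the 6 tested comparisons. Against DMSO, 24 and 9 had an unadjusted p under 0.05 with TCEP at 25 and 250 µM. With TCIPP at 2.5 and 25 µM, 11 and 8 did. These are 20.2, 7.56, 9.24 and 6.72% of the list genes, against 15.2, 5.2, 13.9 and 6.36% of all genes. With TCEP at 25 µM, 18 of the 24 were lower and 6 higher. DESeq2 called 4 with TCEP at 25 µM (KDM5C, KDM6A, SETD1A and SUV420H1) and 2 with TCIPP at 2.5 µM (CDK12 and KDM6A). It called 2.7% and 2.09% of the 5745 and 11105 genes to which it gave an adjusted p in these comparisons. In the other 4 comparisons it called 0 list genes, and limma-voom called 0. Both DESeq2 sets held KDM6A, a demethylase that is a subunit of the KMT2C and KMT2D complexes. KDM6A stood at -0.36 (SE 0.0828, edgeR adjusted p = 0.116) with TCEP at 25 µM and at -0.34 (SE 0.0834, adjusted p = 0.0828) with TCIPP at 2.5 µM, where KMT2C was at 0.10 and KMT2D at -0.13. SETD1A, another lysine 4 methyltransferase, was at -0.36 (SE 0.0974, adjusted p = 0.136) with TCEP at 25 µM. SUV420H1, which methylates lysine 20 of histone H4, stood on the other side of DMSO, at 0.31 (SE 0.0843, adjusted p = 0.136), as did the deacetylase gene HDAC11, at 0.39 (SE 0.144, adjusted p = 0.210). Between the TCIPP concentrations SETD1A stood at 0.34 and HDAC5 at -0.29 without the block. With the replicate block 4 of the 119 list genes were called in this step, SETD1A, HCFC1, HDAC5 and MLLT6, against 3.85% of all genes. In the TCEP step the block called MLLT6, 1 list gene against 1.47% of all genes. With TCEP at 25 µM and TCIPP at 2.5 µM against DMSO it called 13 and 9 list genes. Over all 12567 genes it called 1037 and 941 there. With TCEP at 250 µM and TCIPP at 25 µM it called 0 list genes.

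For the 17 COMPASS partners the median difference between TCIPP and TCEP at 25 µM was 0.11, with 13 above 0, and for the 16 partners of DOT1L and the super elongation complex it was 0.03, with 10 above 0. The 18 general elongation factors had medians of -0.02 with TCEP at 25 µM and -0.05 with TCIPP at 25 µM against DMSO, below 0 for both. Between the compounds at 25 µM the median was 0.08 for the other 12 acetyltransferases, 0.06 for the 22 other methyltransferases, 0.09 for the 16 demethylases, 0.01 for the 13 deacetylases and 0.07 for the 5 genes of the PIAS family. The members were selected for being higher in this contrast, so nothing is read from the distance between these medians and their 0.28. Within the super elongation complex list, MLLT6 was at -0.30 (SE 0.104, edgeR adjusted p = 0.195) with TCEP at 25 µM against DMSO and ELL2, an elongation factor of the same complex, at 0.21 (SE 0.0981, adjusted p = 0.326). Among general factors SUPT5H, a subunit of DSIF, was at -0.27 (SE 0.0802, adjusted p = 0.159) with TCEP at 25 µM.

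Across the 15 libraries the 36 pairs of members correlated at Pearson r of 0.618 to 0.912 (median 0.753) in log2(CPM + 1), as a description over libraries that share depth and group differences. All members were selected on the same contrast between the compounds, and that choice in part brings about positive correlations over these libraries. KMT2A and EP300 were the closest pair, at 0.912, followed by KMT2D and AFF1 at 0.899, and KMT2C and KMT2D the least alike, at 0.618. After each group's mean was subtracted the pairs ran from -0.214 to 0.858, with a median of 0.523. Among the 5 other genes whose pattern was most like the members' mean, of 8809 with at least 10 CPM on average, were UBR4 (r = 0.897), SRRM2 (0.893), KMT2B (0.884) and FAT1 (0.880). KMT2B, the paralog of KMT2A, was read from the entry with the suffixed label KMT2B_1. This entry averaged 46.9 CPM in DMSO, 41.0 and 43.9 at the lower and higher TCEP concentration and 51.5 and 50.8 at those of TCIPP. Only 46.4% of its exon reads were placed at 1 position, so its level is less certain.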

How the data were processed

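Poly-A RNA of 15 HepG2 libraries (5 groups of 3) was sequenced as paired reads of 50 bp. Per the series' design text, the authors mapped and counted reads with CLC Genomics Workbench on hg19 (GRCh37). No source used here gives its version. Per the file headers, the deposited tables hold whole-number counts of exon, intron and gene reads for each gene and library, and RPKM values made by the authors from the exon reads. The samples were also quantile normalized by the authors, and those values were not used here.

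Counts of total exon reads of the whole table were fitted with edgeR 4.0.16 (quasi-likelihood test, TMM scaling, filterByExpr with a minimum count of 10, all 15 libraries, no covariate; R 4.3.3). P-values were adjusted by Benjamini-Hochberg over all genes tested, and adjusted values under 0.05 were calls. The same fit was made on intron reads. SE is the absolute log2 difference divided by the square root of F. CPM are TMM-scaled, and marker CPM are scaled to library totals. Library depth of 5353963 to 26771751 exon reads was one limit on the precision of each gene. Replicates of a group also differed beyond counting error, with a chi-square per gene of 3.75 to 11.47 between pairs of libraries. Reads carry no molecular identifiers, so the worth of 3 reads covers counting error only. The fit was also run on simulated counts, with changes larger than any estimate of the members, so that run does not bear on changes of their size.

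There were 6 tested comparisons: the 4 treatments against DMSO and, within each compound, its 2 concentrations. The contrast of TCIPP with TCEP has no test. All 9 members are described; in each comparison those called are named or, if none, the 2 with the smallest p, and up to 2 genes a list. Some genes that this rule or the ranking by likeness names are not reported here. The members and lists were chosen with earlier results of these data known. Same-numbered libraries of the same compound deviated together at both concentrations (correlations of deviations from group means 0.238 to 0.341 for TCEP and 0.350 to 0.364 for TCIPP), so the numbers were taken to pair those libraries. In the comparisons with DMSO the correlations ran from 0.007 to 0.168 and did not exceed 0.1 in every pair. Alternatives were other scalings, DESeq2 1.42.0, limma-voom (limma 3.58.1), no filter, unique exon or total gene reads, only the groups compared, the replicate block and leaving libraries out. The replicate block was fitted over all 15 libraries, so it also covers DMSO, and not within a compound. The main fit leaves the pairing out of both concentration steps, so results with the block are given beside it for exon reads. No intron fit used the block. Gene starts were moved to a 1-based scale. Promoter sequences are from RefSeq, GRCh38.p14.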

Additional observations from a re-analysis of the deposited data

How the results depend on the processing

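In the 6 tested comparisons, 98 of 102 alternative counts of called members stayed at 0. The exceptions were TCEP at 25 µM against DMSO and the TCIPP concentration step. With TCEP at 25 µM, 2 members were called without the filter on low counts, 2 with the replicate block and 1 by DESeq2. With this block the edgeR adjusted p was 0.00427 for AFF1 and 0.0261 for KMT2D. Same-numbered libraries correlated there at 0.017 to 0.085, so the numbers were not taken to pair them, and a weaker link was not tested. In the TCIPP step 1 member was called under the block. The cause of these exceptions was not tested. The block changed no other member's call. Leaving out 1 library, or all libraries of a number, gave 0 called members throughout. Over these leave-outs the members' median against DMSO ranged from -0.196 to -0.056 with TCEP at 25 µM (main -0.14; -0.063 without DMSO replicate 1), -0.175 to -0.051 at 250 µM, -0.046 to 0.124 with TCIPP at 2.5 µM and 0.094 to 0.215 at 25 µM. The extremes came from leaving out the libraries numbered 1 or 3 or DMSO replicate 1. Every other setting kept each median within the replicate spread of 0.068, and the median between the compounds at 25 µM stayed at 0.236 to 0.299. Of the 54 estimates of 9 genes in 6 comparisons, 15 changed sign over the leave-outs. AFF4 ran from -0.131 to 0.053 with TCEP at 25 µM. With TCEP at 250 µM, KMT2A ran from -0.141 to 0, DOT1L from -0.195 to 0.029 and AFF4 from -0.124 to 0.035. With TCIPP at 2.5 µM, KMT2A ran from -0.066 to 0.137, KMT2D from -0.279 to 0.005, EP300 from -0.046 to 0.124, AFF4 from -0.052 to 0.133 and ZMIZ1 from -0.006 to 0.141. KMT2D ran from -0.03 to 0.217 with TCIPP at 25 µM, and DOT1L from -0.004 to 0.12 in the TCIPP step. In the TCEP step, KMT2C ran from -0.058 to 0.006, CREBBP from -0.024 to 0.076, AFF4 from -0.036 to 0.019 and ZMIZ1 from -0.065 to 0.032. Of the other settings, unique exon reads turned EP300 with TCIPP at 2.5 µM (-0.004) and KMT2A in the TCEP step (-0.001), and library totals turned AFF4 (0.016) and ZMIZ1 (0.003) in the TCEP step. AFF1 stayed at -0.354 to -0.277 with TCEP at 25 µM, with adjusted p from 0.00427 to 0.573 over all settings.

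Counts over all genes depended far more on the setting. With TCEP at 25 µM they went from 0 to 618 without the filter, 1037 with the block, 155 by DESeq2, 135 in a fit of the groups compared, 4 by limma-voom, 2 on unique reads and up to 30 over leave-outs. With TCEP at 250 µM they went from 0 to 50, 34 and 17 under the first 3 of these and 1 on gene reads. With TCIPP at 2.5 µM they went from 12 to 553, 941 and 232, 35 on library totals, 122 on unique reads, 0 on gene reads, 104 by limma-voom, 23 in the groups compared and 0 to 307 over leave-outs. With TCIPP at 25 µM they went from 1 to 80, 47 and 34, and 0 to 5 over leave-outs. The TCEP and TCIPP steps went from 0 to 161, 185 and 14 and to 345, 484 and 72. Low intron depth, 3 to 443 reads a gene, limits that measure. The replicates of a group show the spread between separately treated cultures of 1 line.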
